A study of Mus musculus with 6 samples.

Results

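The genes described here are those of antigen presentation by the major histocompatibility complex (MHC) in mouse liver. They were chosen by name: every row of the count table whose symbol begins with H2-, apart from pseudogenes named -ps, together with B2m, Tap1, Tap2, Tapbp, Tapbpl, Psmb8, Psmb9, Psmb10, Erap1, Nlrc5, Ciita, Cd74, Cd1d1 and Mr1, if it held a count above 0 in at least 1 library. Of 55 rows with such a symbol, 45 met this condition, out of 55401 genes in the table. They comprise 30 class I genes, 11 class II genes and 4 others. RNA was sequenced from fresh liver of C57BL/6 mice in 2 groups of 3 libraries. The HFCF group received a diet enriched in fat, cholesterol and fructose. The OP group was treated with OP, which the series title gives as okra polysaccharide, a mixture of plant carbohydrates; its labels give neither diet, dose nor duration. Age and sex are not in the labels of either group, and no mice on a standard diet enter the comparison. Whether each sample is a separate animal is not labelled; p-values therefore reflect only the spread among these samples, part of which may be technical.

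Class I molecules sit on nearly all nucleated cells and show peptides from the cell's own proteins to CD8 T cells and natural killer cells. The peptides are cut by the proteasome, carried into the endoplasmic reticulum by the TAP transporter and loaded onto a heavy chain paired with beta-2-microglobulin. Class II molecules are made mainly by dendritic cells, macrophages and B cells, and show peptides from ingested material to CD4 T cells. Hepatocytes make class I but little class II, and they secrete a soluble class I molecule, the product of H2-Q10.

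Library totals ran from 46459980 to 61918541 counts, at which 3 counts correspond to 0.0472 to 0.0625 CPM (counts scaled to library size with TMM factors); such limits cover counting error only. Of 17394 genes tested, 6.73% passed at a Benjamini-Hochberg adjusted p below 0.05 with edgeR's quasi-likelihood method, 3.26% being higher and 3.47% lower in OP. An unadjusted p below 0.05 was reached by 25.2%. DESeq2 called 15.1% (7.7% higher, 7.41% lower) of its 15320 tested genes and limma-voom 7.58% (3.71% higher, 3.87% lower). In 31.2% of genes the 3 OP libraries all lay on one side of the 3 HFCF libraries. All 8 hepatocyte markers examined had counts in every library, with Ttr called higher, Cps1 called lower and Alb, the albumin gene, at 21698 ± 9771 CPM in HFCF and 41087 ± 10990.2 CPM in OP (mean ± SD, n = 3 each, as throughout). Alb was not called (edgeR, Benjamini-Hochberg adjusted p = 0.158), and its groups overlapped. Mitochondrial mRNAs took 14.1 to 22.03% of the counts in HFCF and 6.08 to 14.4% in OP. OP replicate 3, at 14.4%, lay within the HFCF range, and the other OP libraries lay below it.

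Class I genes moved in both directions, and no class II gene passed the test. Among 27 class I genes tested, 3 rose and 5 fell in OP. Those that fell were Nlrc5, the class I transactivator, and 4 neighbouring heavy chain genes, H2-Q4, H2-Q5, H2-Q6 and H2-Q7. Those that rose were Psmb10, a catalytic subunit of the immunoproteasome, and the heavy chain genes H2-T22 and H2-K2. Against the backgrounds of 3.26% and 3.47% these are 3 and 5 of 27, and 15 of the 27 had an unadjusted p below 0.05, against 25.2% of all genes. Of 11 class II genes tested, 0 rose and 0 fell with edgeR, and 1 had an unadjusted p below 0.05; DESeq2 called 1 lower, against its background of 7.41%, and limma-voom called 0. The median log2 fold change (OP minus HFCF) was 0.25 over the class I genes, 0.10 over the class II genes and 0.019 over all tested genes. The other 3 class I genes, H2-M5, H2-M10.6 and H2-T3, had at most 12 counts in a library and were not tested; nor was the pseudogene H2-Pa, with 3 counts in 1 library. Without HFCF replicate 3 or OP replicate 2 the class I median was 0.091 or 0.076, and without HFCF replicate 3 or OP replicate 1 the class II median was -0.10 or -0.03.

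**Figure D1:**
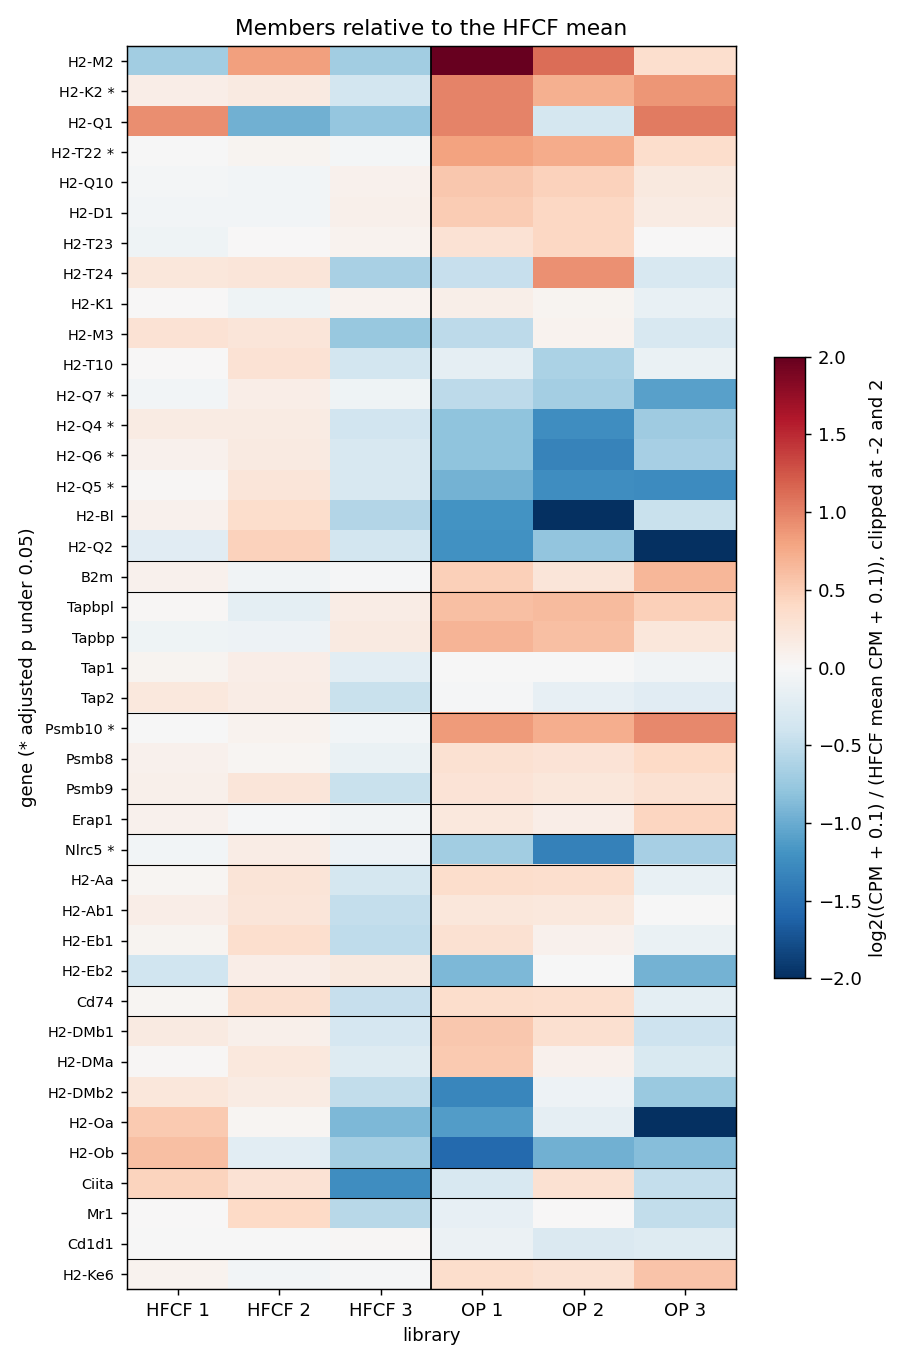
Level of the 41 tested genes in each library relative to the HFCF mean, as log2((CPM + 0.1) / (HFCF mean CPM + 0.1)), clipped at -2 and 2, with rows grouped by role and an asterisk at an adjusted p under 0.05. H2-Q4 to H2-Q7 and Nlrc5 are blue in all 3 OP libraries, Psmb10, H2-T22 and H2-K2 are red, and the rows of Cd74, H2-Aa, H2-Ab1 and H2-Eb1 hold paler colours that differ more within the groups.

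**Figure D2:**
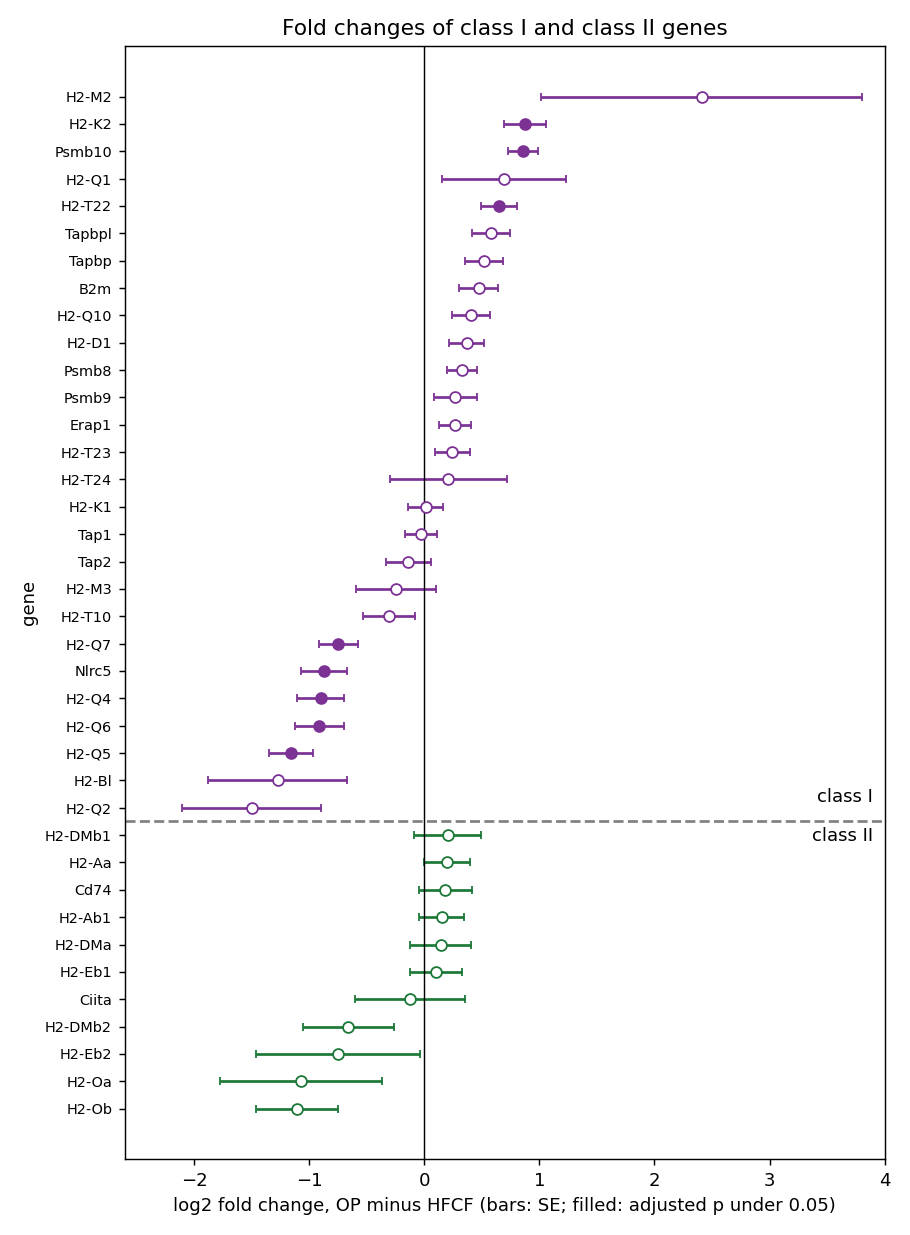
Log2 fold change (OP minus HFCF, x axis) with its standard error for 27 class I genes (purple) and 11 class II genes (green); filled points have an adjusted p below 0.05. The 8 filled points are all class I, 5 to the left of 0 and 3 to the right; the class II points run from -1.11 (H2-Ob) to 0.21 (H2-DMb1).

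The heavy chains come first, since they bind the peptide. A total of 20 heavy chain genes had counts and 17 were tested, of which 2 rose, 4 fell and 11 did not pass. Per kilobase of transcript, the scale on which genes can be compared, H2-Q10 was the highest in HFCF at 869 ± 46.5 CPM per kb, followed by H2-K1 at 696 ± 38.0, H2-D1 at 187 ± 12.6 and H2-T23 at 133 ± 6.79. H2-K1 and H2-D1 encode the classical class I molecules K and D. Neighbours in that order did not overlap across the HFCF libraries. H2-Q7 (65.7 ± 5.32), H2-Q4 (59.9 ± 12.3), H2-T22 (42.6 ± 1.44) and H2-Q6 (40.1 ± 7.04) followed; H2-Q7 overlapped with H2-Q4 across the HFCF libraries and H2-T22 with H2-Q6, while H2-Q4 lay above H2-T22 in each. By counts, H2-Q10 made up 43.9, 44.1 and 45.7% of all heavy chain counts in HFCF and 51.0, 51.2 and 49.8% in OP. H2-Q4 to H2-Q7 together made up 8.34, 9.09 and 6.37% in HFCF and 3.76, 3.16 and 4.32% in OP.

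The Q region genes that fell belong to the non-classical class I genes; H2-Q6 and H2-Q7 encode Qa-2 antigens. H2-Q4 was at 119.8, 120.4 and 82.0 CPM in HFCF replicates 1 to 3 and at 61.3, 45.5 and 65.8 CPM in OP. H2-Q6 was at 88.8, 95.0 and 67.1 CPM in HFCF and at 47.6, 32.9 and 52.8 CPM in OP. For both genes every OP library was below every HFCF library, with HFCF replicate 3 the lowest of its group and OP replicate 2 the lowest of all. H2-Q7 was at 96.8, 109 and 94.1 CPM in HFCF and at 69.3, 62.7 and 47.0 CPM in OP. H2-Q5, which GENCODE M21 lists as a polymorphic pseudogene, was at 15.7, 18.3 and 12.4 CPM in HFCF and at 7.95, 6.48 and 6.43 CPM in OP. Again the groups did not overlap; among all tested genes, 15.4% had every OP library below every HFCF library. The log2 fold changes were -0.90 ± 0.206 for H2-Q4 (SE, as for all fold changes), -0.91 ± 0.213 for H2-Q6, -0.75 ± 0.172 for H2-Q7 and -1.15 ± 0.191 for H2-Q5. Their adjusted p with edgeR (Benjamini-Hochberg) were 0.0391, 0.0418, 0.0406 and 0.0147. H2-Q2, a further Q gene at low level, was at 1.18, 1.95 and 1.06 CPM in HFCF and 0.55, 0.771 and 0.146 CPM in OP (log2 fold change -1.50 ± 0.602), and did not pass (edgeR adjusted p = 0.166).

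None of the 4 most abundant heavy chains passed the test. H2-Q10 was at 1689.6, 1666 and 1837 CPM in HFCF and at 2526, 2391 and 1983 CPM in OP. H2-D1 was at 377, 378 and 423 CPM in HFCF and at 559.65, 521 and 439 CPM in OP. Both had all OP libraries above all HFCF libraries, as 15.8% of tested genes did, with OP replicate 3 the closest to HFCF; neither passed the test (log2 fold changes 0.41 ± 0.166 and 0.37 ± 0.149; edgeR, Benjamini-Hochberg adjusted p = 0.168 and 0.169). H2-K1 was at 1128, 1064 and 1187 CPM in HFCF and at 1224, 1170.1 and 1018 CPM in OP. Its groups overlapped fully, and its log2 fold change was 0.01 ± 0.151. H2-T23, the gene of the Qa-1 molecule that is read by an inhibitory receptor of natural killer cells, was at 185, 197 and 205 CPM in HFCF and 239.7, 261 and 196 CPM in OP, with OP replicate 3 inside the HFCF range (0.25 ± 0.149). Summed into 1 feature, all heavy chains had a log2 fold change of 0.23, against a median of 0.01 over the 17 tested genes, since H2-Q10, H2-K1 and H2-D1 hold most of the counts.

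H2-T22, whose product is bound by a subset of gamma-delta T cells, was at 74.5, 77.7 and 72.7 CPM in HFCF and at 131, 126 and 95.9 CPM in OP. The 3 HFCF values lay close together and OP replicate 3 was the nearest to them. The log2 fold change was 0.65 ± 0.155 (edgeR, Benjamini-Hochberg adjusted p = 0.0447). H2-K2, a transcribed pseudogene in GENCODE M21, was at 15.8, 16.3 and 11.1 CPM in HFCF and at 28.9, 23.7 and 26.8 CPM in OP, a log2 fold change of 0.88 ± 0.182 (edgeR adjusted p = 0.0298). H2-Q1 was at 37.6, 10.1 and 11.4 CPM in HFCF and at 39.5, 15.5 and 40.4 CPM in OP; its values split within both groups and it did not pass. H2-M2 had 0, 9 and 0 counts in HFCF and 38, 16 and 5 in OP, and H2-Bl had 2.16, 2.60 and 1.32 CPM in HFCF and 0.833, 0.236 and 1.46 CPM in OP; both had overlapping groups and neither passed (log2 fold changes 2.41 ± 1.40 and -1.27 ± 0.605). H2-M3, which presents formylated peptides, H2-T10 and H2-T24 had log2 fold changes of -0.24, -0.30 and 0.21, with overlapping groups.

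**Figure D3:**
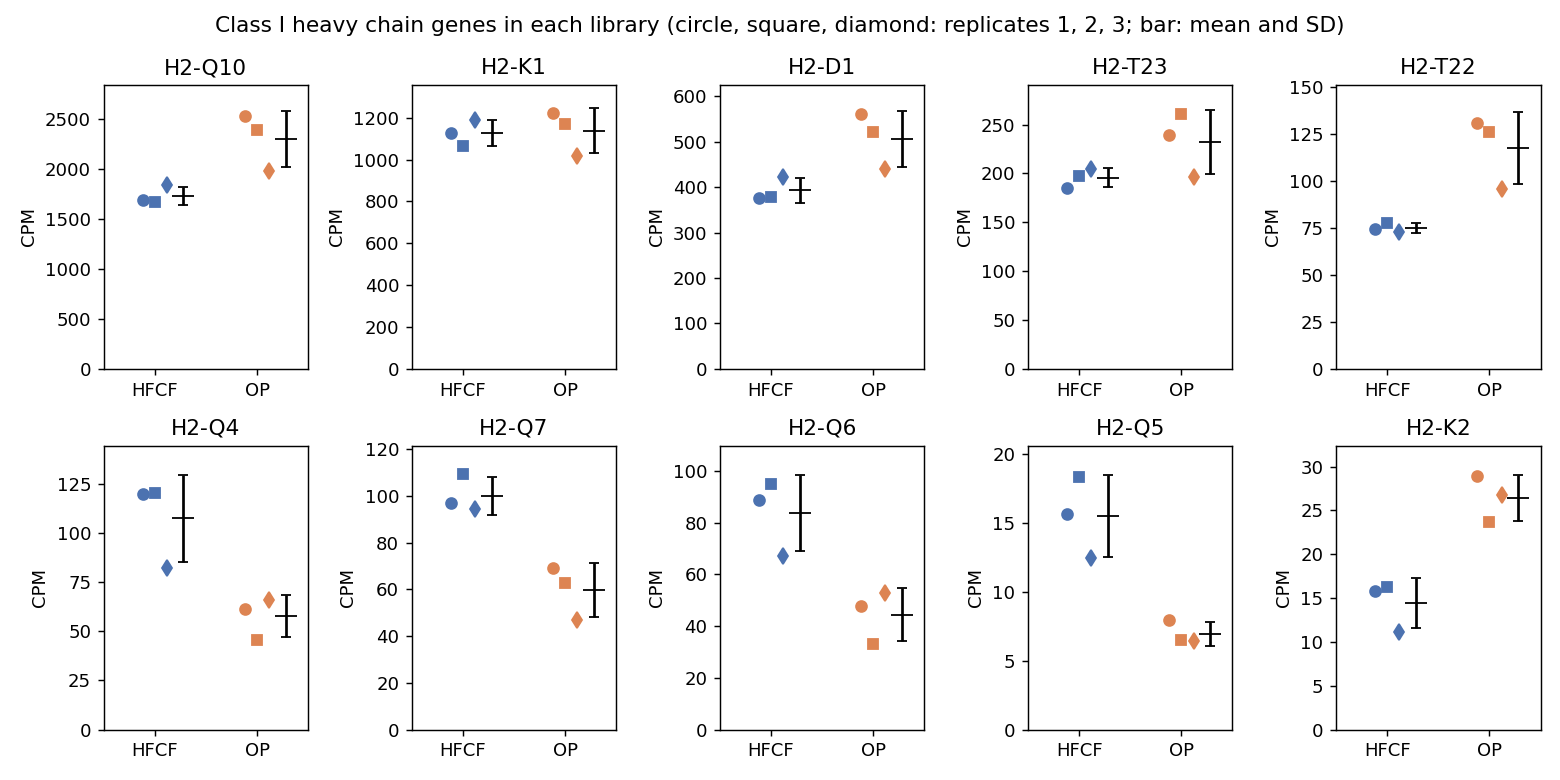
CPM (y axes from 0) of 10 class I heavy chain genes in each library of the HFCF (blue) and OP (orange) groups, with the mean and SD beside them. H2-Q4, H2-Q5, H2-Q6 and H2-Q7 lie lower in all OP libraries, H2-T22 and H2-K2 lie higher, and H2-K1 and H2-T23 overlap.

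Heavy chain genes are close copies of each other, which bears on how reads are split between them. Of all stretches of 150 bases, the read length, in the longest GENCODE M21 transcript of a gene, the share found unchanged in a transcript of another gene was 6.87% for H2-Q7, 5.99% for H2-Q6, 3.18% for H2-Q5 and 3.901% for H2-Q10. It was 0% for H2-K1 and H2-K2. For H2-Q4 it was 10.46%, shared with the opposite-strand gene Gm11131, and for H2-T22 29.4%, shared with the opposite-strand gene A930015D03Rik. Gm11131 held 56 to 239 counts per library and A930015D03Rik 0 to 2. Whether the counting used strand is not stated in the labels, and reads with mismatches were not examined, so the split between the Q genes is uncertain.

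Start regions of these genes are shown because closely similar ones belong both to heavy chains that fell and to heavy chains that did not pass. Class I promoters are known for a kappa-B site bound by NF-kappa-B, an interferon-stimulated response element bound by IRF factors, and an S-X-Y module through which NLRC5 acts with RFX, CREB and NF-Y proteins. RefSeq start regions on GRCm38.p6, 250 bases before to 50 after a start, were found for 31 of the 45 genes. In the stretches below, capitals mark matches on either strand to GGG and TTCCC separated by 2 bases (kappa-B), GAANNGAAA (response element, read on the printed strand as its reverse complement), TGACG (core of a CREB site) and CCAAT (NF-Y box). The count table was made on GRCm39 per the submitters' processing notes, so these coordinates belong to the sequences only.
H2-K1 (chr17:34000326-34000468, minus strand): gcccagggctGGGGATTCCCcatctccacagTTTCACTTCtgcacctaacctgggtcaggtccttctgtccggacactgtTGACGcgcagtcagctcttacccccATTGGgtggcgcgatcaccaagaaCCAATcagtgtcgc
H2-D1 (chr17:35262913-35263055, plus strand): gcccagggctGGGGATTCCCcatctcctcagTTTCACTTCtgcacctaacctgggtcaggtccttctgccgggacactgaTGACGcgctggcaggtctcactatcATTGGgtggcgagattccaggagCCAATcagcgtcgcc
H2-Q10 (chr17:35469903-35470045, plus strand): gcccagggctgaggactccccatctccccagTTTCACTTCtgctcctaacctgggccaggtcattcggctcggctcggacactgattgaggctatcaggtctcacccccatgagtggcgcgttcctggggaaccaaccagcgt
H2-Q4 (chr17:35379433-35379575, plus strand): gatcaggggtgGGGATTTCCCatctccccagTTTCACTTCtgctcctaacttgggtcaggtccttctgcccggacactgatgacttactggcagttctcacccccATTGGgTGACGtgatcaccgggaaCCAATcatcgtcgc
H2-Q6 (chr17:35424667-35424809, plus strand): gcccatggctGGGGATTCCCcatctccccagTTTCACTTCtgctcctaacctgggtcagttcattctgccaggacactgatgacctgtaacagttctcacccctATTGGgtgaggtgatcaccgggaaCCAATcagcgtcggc
H2-Q7 (chr17:35439011-35439153, plus strand): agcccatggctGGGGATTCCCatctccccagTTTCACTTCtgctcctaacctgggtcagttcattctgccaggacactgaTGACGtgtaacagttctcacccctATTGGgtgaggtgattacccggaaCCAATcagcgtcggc
H2-T22 (chr17:36042750-36042953, minus strand): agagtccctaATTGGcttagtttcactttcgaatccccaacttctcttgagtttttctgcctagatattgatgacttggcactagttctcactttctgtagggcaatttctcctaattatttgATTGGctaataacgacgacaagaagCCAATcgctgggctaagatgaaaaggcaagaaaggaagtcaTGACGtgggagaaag
The response element stood in all 6 of the K, D and Q stretches, both in those of H2-Q4, H2-Q6 and H2-Q7, which fell, and in those of H2-K1, H2-D1 and H2-Q10, which did not pass. The kappa-B match and both CCAAT matches were in 5 of these 6 and not in that of H2-Q10. TGACG stood in H2-K1, H2-D1, H2-Q7 and H2-Q4, in the last at another place, and not in H2-Q6 or H2-Q10. The H2-T22 stretch held 3 CCAAT matches and 1 TGACG. Among the 31 genes, 8 had the response element, 7 the kappa-B match, 11 TGACG and 23 CCAAT. Among all 32851 start regions of the same length the shares were 7.52, 1.75, 20.8 and 37.4%. None of the matches overlapped another in the printed stretches of these 7 genes, and a match says only that these letters are present.

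B2m encodes beta-2-microglobulin, the light chain of every class I molecule, and was the highest of the 45 genes per kilobase, at 1706 ± 94.4 CPM per kb in HFCF and 2370.4 ± 348 in OP. It stood at 1558, 1402 and 1441 CPM in HFCF and at 2052, 1733 and 2331 CPM in OP. All OP libraries were above all HFCF libraries. The log2 fold change of 0.47 ± 0.170 did not pass with edgeR (Benjamini-Hochberg adjusted p = 0.127); it passed with DESeq2 (adjusted p = 0.0372), and over all alternatives the adjusted p ran from 0.0372 to 0.408.

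The next genes supply the peptides. Psmb10, Psmb8 and Psmb9 encode the 3 catalytic subunits that replace the constitutive ones in the immunoproteasome. Psmb10 rose, from 20.9, 21.9 and 20.1 CPM in HFCF to 38.1, 34.8 and 40.9 CPM in OP, a log2 fold change of 0.86 ± 0.131 (edgeR, Benjamini-Hochberg adjusted p = 0.0119). Psmb8 was at 31.6, 30.3 and 27.0 CPM in HFCF and 36.5, 35.8 and 39.2 CPM in OP (0.33 ± 0.129), also without overlap, and did not pass (edgeR adjusted p = 0.162). Psmb9 was at 20.3, 22.3 and 13.9 CPM in HFCF and 22.9, 22.01 and 23.2 CPM in OP, with overlapping groups (0.27 ± 0.188). Of the 3 subunits Psmb10 thus had the largest difference, and the differences among them were not tested.

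Tap1 and Tap2, the 2 subunits of the peptide transporter, had log2 fold changes near 0. Tap1 was at 34.9, 36.6 and 29.1 CPM in HFCF and 33.5, 33.5 and 31.8 CPM in OP (-0.03 ± 0.137), and Tap2 had a log2 fold change of -0.14 ± 0.191. Tap1 and Psmb9 lie head to head and share 212 exon bases on opposite strands. Tapbp, the gene of tapasin, which bridges TAP and the heavy chain, was at 45.5, 45.1 and 54.5 CPM in HFCF and 77.4, 73.5 and 56.9 CPM in OP (0.52 ± 0.164). Tapbpl, a related peptide editor, was at 7.76, 6.61 and 8.45 CPM in HFCF and 11.6, 11.9 and 10.7 CPM in OP (0.58 ± 0.164). Neither group pair overlapped, and neither gene passed (edgeR, Benjamini-Hochberg adjusted p = 0.0933 and 0.0695). Tapbp passed with DESeq2 (adjusted p = 0.0459) and with edgeR without OP replicate 3 (adjusted p = 0.0437), and its log2 fold change was 0.12 with the share of mitochondrial mRNA as a covariate; its adjusted p over all alternatives ran from 0.0437 to 0.783. Erap1, which trims peptides in the endoplasmic reticulum, had a log2 fold change of 0.27 ± 0.138.

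Nlrc5 encodes the transactivator that raises class I transcription, including that of B2m, Tap1 and Psmb9. It fell from 61.5, 70.7 and 59.6 CPM in HFCF to 39.5, 25.1 and 40.2 CPM in OP. The groups did not overlap, and OP replicate 2 was the lowest library, as it was for H2-Q4 and H2-Q6. H2-Q7 and, by a small margin, H2-Q5 were instead lowest in OP replicate 3. The log2 fold change was -0.87 ± 0.199 (edgeR, Benjamini-Hochberg adjusted p = 0.0390). Nlrc5 shares 78 exon bases with the opposite-strand gene 9330175E14Rik, which held 67 to 380 counts per library.

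The 8 calls were sensitive to single libraries. All 8 were lost when replicate 1 or 2 of HFCF or replicate 1 of OP was left out, and all 8 were kept without OP replicate 3. Without HFCF replicate 3 the calls of H2-Q4, H2-Q5, H2-Q6, H2-K2 and Psmb10 were kept, and without OP replicate 2 those of H2-Q5, H2-K2 and Psmb10. When the share of mitochondrial mRNA entered the edgeR fit as a covariate, Psmb10 kept its call (log2 fold change 1.01, Benjamini-Hochberg adjusted p = 0.0455; 3.03e-05 to 0.0907 over all its alternatives); the values of H2-Q4, H2-Q6, Nlrc5 and H2-T22 shrank to -0.37, -0.40, -0.58 and 0.40, those of H2-Q5, H2-Q7 and H2-K2 were -1.03, -1.03 and 1.201, and these 7 were not called. The share went largely with the group, so share and group cannot be told apart here.

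Class II genes stood far below the main heavy chains. In HFCF, Cd74, the invariant chain that guards the class II groove, stood at 56.7 ± 14.8 CPM per kb, H2-Aa at 32.7 ± 6.72, H2-Ab1 at 27.6 ± 6.78 and H2-Eb1 at 15.7 ± 4.47. H2-Aa and H2-Ab1 encode the alpha and beta chains of the class II molecule A, and H2-Eb1 the beta chain of E, whose alpha chain is not made in C57BL/6 mice.

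Cd74 was at 81.7, 99.8 and 58.3 CPM in HFCF and at 102, 101 and 70.1 CPM in OP. H2-Aa was at 37.7, 43.9 and 28.8 CPM in HFCF and at 47.2, 46.4 and 33.3 CPM in OP. H2-Ab1 was at 36.5, 39.7 and 24.1 CPM in HFCF and at 39.4, 38.9 and 33.2 CPM in OP. In each of these genes, and in H2-Eb1 (27.2, 33.2 and 18.3 CPM in HFCF, 32.4, 28.01 and 23.98 CPM in OP), replicate 3 was the lowest of its group in both groups. For each of the 4 genes the groups overlapped, and the means differed by less than the SD of the HFCF group. Log2 fold changes were 0.18 ± 0.228 for Cd74, 0.20 ± 0.202 for H2-Aa, 0.15 ± 0.197 for H2-Ab1 and 0.10 ± 0.225 for H2-Eb1, with adjusted p of 0.588 to 0.826 with edgeR (Benjamini-Hochberg). H2-Eb2, a further beta chain gene, had only 11, 18 and 24 counts in HFCF and 8, 21 and 6 in OP, with overlap. Ciita, the class II transactivator, was at 3.09, 2.76 and 0.892 CPM in HFCF and 1.78, 2.80 and 1.58 CPM in OP, with full overlap (-0.12 ± 0.476). It shares 329 exon bases with the opposite-strand gene Dexi. Dexi held 532 to 584 counts per library in HFCF and 978 to 1188 in OP, against 54 to 178 for Ciita over all libraries. Whether reads of Dexi were counted for Ciita was not tested.

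The genes of peptide exchange follow. H2-DMa and H2-DMb1, chains of the DM molecule that frees the groove for peptides, had log2 fold changes of 0.14 ± 0.265 and 0.21 ± 0.291 and overlapping groups. H2-DMa shares 360 exon bases with the opposite-strand gene Brd2, which held 3352 to 6088 counts per library, against 192 to 431 for H2-DMa. Whether reads of Brd2 were counted for H2-DMa was not tested. H2-Oa and H2-Ob encode DO, an inhibitor of DM that is made mainly in B cells. H2-Ob was at 12.3, 6.94 and 5.00 CPM in HFCF and at 2.68, 4.12 and 4.45 CPM in OP, and its groups did not overlap. That held for 1 of the 11 class II genes and for 31.2% of all tested genes, 15.4% being lower in OP. Its log2 fold change was -1.11 ± 0.356 (edgeR, Benjamini-Hochberg adjusted p = 0.0962; DESeq2, adjusted p = 0.0171; 0.0171 to 0.895 over all alternatives). H2-Oa was at 1.72, 1.21 and 0.578 CPM in HFCF and 0.483, 1.02 and 0.146 CPM in OP (-1.07 ± 0.701), and H2-DMb2 had -0.66 ± 0.398, both with overlap. The deposited counts give H2-Ob 595, 334 and 303 counts in HFCF and 161, 262 and 214 in OP.

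**Figure D4:**
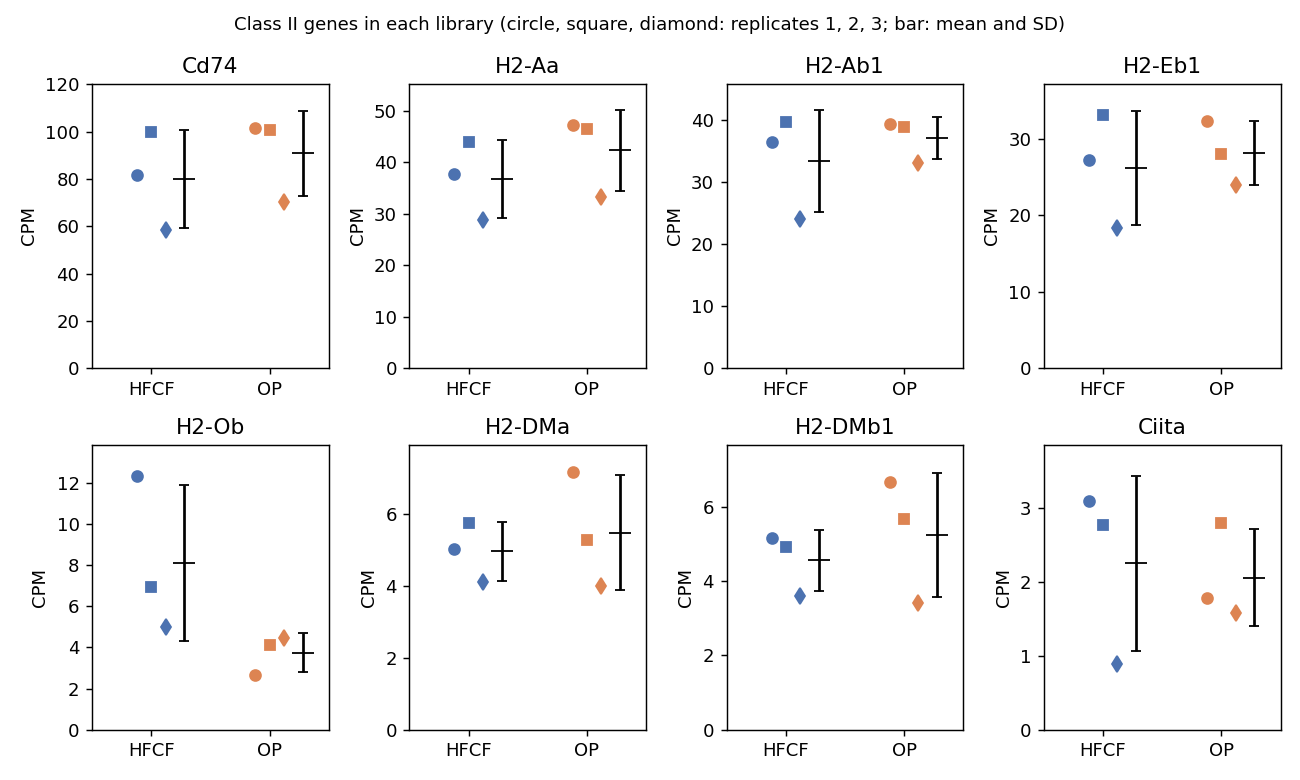
CPM (y axes from 0) of 8 class II genes in each library of the HFCF (blue) and OP (orange) groups, with the mean and SD beside them. Cd74 and the chains H2-Aa, H2-Ab1 and H2-Eb1 overlap between groups, with replicate 3 lowest in each group, and H2-Ob lies lower in all OP libraries.

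2 class II start regions are shown for comparison with those of class I.
H2-Aa (chr17:34287857-34287964, minus strand): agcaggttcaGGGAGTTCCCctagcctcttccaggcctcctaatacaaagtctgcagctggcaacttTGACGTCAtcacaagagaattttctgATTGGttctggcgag
H2-Eb1 (chr17:34305798-34305846, plus strand): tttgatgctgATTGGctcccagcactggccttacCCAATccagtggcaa
The H2-Aa stretch held a full TGACGTCA, where TGACG matches on both strands and the 2 matches overlap, and a kappa-B match; H2-Eb1 held 2 CCAAT matches. Neither held the response element that stood in the K, D and Q stretches.

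The classes were also set against each other within each library. Counts of the 4 class II chain genes were 2.64, 3.10 and 1.79% of the counts of the 20 class I heavy chain genes in HFCF and 2.41, 2.43 and 2.27% in OP. The log2 ratio was -5.35 ± 0.410 in HFCF and -5.40 ± 0.0532 in OP, a difference of -0.05 that was smaller than the spread in HFCF. Single libraries moved this difference: it was -0.27 without HFCF replicate 3, when both other HFCF values lie above all OP values, 0.13 without HFCF replicate 2 and 0.0091 without HFCF replicate 1. The HFCF values enclosed the OP values on both sides. By the mean log2 CPM of each class, class II minus class I was -2.09 ± 0.193 in HFCF and -2.23 ± 0.268 in OP, again within the spread. Within class I the make-up differed, with the share of H2-Q10 higher and that of H2-Q4 to H2-Q7 lower in each OP library than in each HFCF library, as given above. These shares were described after the single genes were seen and were not tested.

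The class I-like genes outside both classes did not pass. Cd1d1, which shows lipids to natural killer T cells, was at 461, 458 and 468 CPM in HFCF and 425, 378.8 and 386 CPM in OP. All OP libraries were lower, by a log2 fold change of -0.22 ± 0.130 (edgeR, Benjamini-Hochberg adjusted p = 0.335). Mr1, which shows vitamin B metabolites to innate-like T cells, had a log2 fold change of -0.20 ± 0.322. H2-Ke6 carries an H2 name because it lies in the MHC, but encodes a hydroxysteroid dehydrogenase; it was at 66.4, 61.4 and 62.8 CPM in HFCF and 80.7, 78.5 and 94.9 CPM in OP (0.41 ± 0.136, not passed), and overlaps the predicted gene Gm20427 on its own strand over 1419 exon bases.

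Genes that act on these pathways from lists of related function were examined in the same fit. Interferon-gamma is a main inducer of both classes, in part through the transcription factor IRF1. Irf1 was at 61.0, 61.8 and 45.5 CPM in HFCF and 30.99, 31.3 and 41.4 CPM in OP (-0.70 ± 0.182), and missed the threshold (edgeR adjusted p = 0.0575; DESeq2 adjusted p = 0.00644; 0.00644 to 0.596 over all alternatives). The groups did not overlap, and the replicate 3 libraries of the 2 groups were the closest. Ifng itself had too few counts to be tested.

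The factors that bind the S-X-Y module together with NLRC5 or CIITA were listed with the coactivator genes Kat2b, Crebbp and Ep300. Of the 11 tested genes of this list 1 was lower and none higher. Over all tested genes 3.47% were lower and 3.26% higher. Rfx5, a subunit of the RFX complex, fell from 14.8, 12.3 and 19.1 CPM in HFCF to 9.23, 5.96 and 7.93 CPM in OP (log2 fold change -1.0003 ± 0.226, edgeR, Benjamini-Hochberg adjusted p = 0.0380). Its partners Rfxap and Rfxank had 0.05 and -0.08. Rfx5 and Nlrc5 were both lowest in OP replicate 2, while H2-Q5 and H2-Q7 were not. Within HFCF the order was opposite, with replicate 2 the lowest for Rfx5 (12.3 CPM) and the highest for Nlrc5 (70.7 CPM). Whether Rfx5 and Nlrc5 vary together was not tested. Rfx5 lost its call whichever library was left out.

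**Figure D5:**
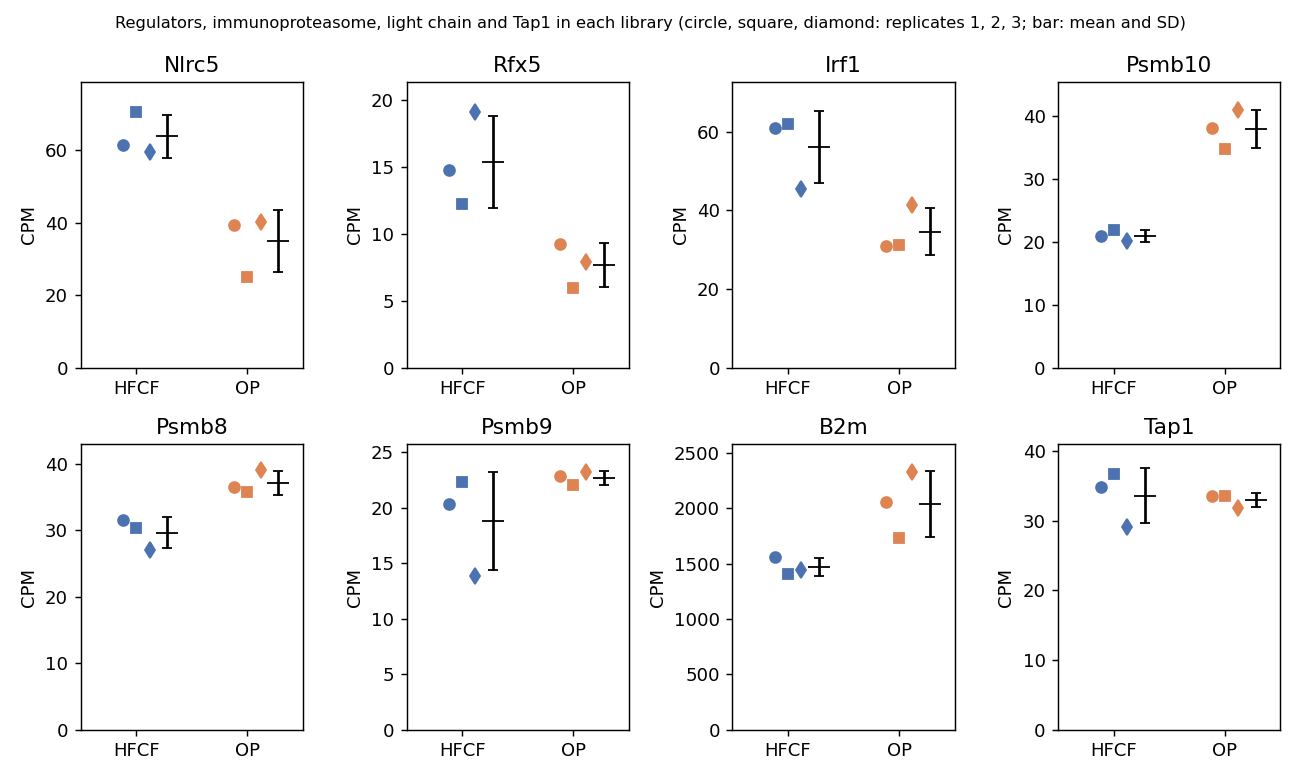
CPM (y axes from 0) of regulators, immunoproteasome subunits, B2m and Tap1 in each library of the HFCF (blue) and OP (orange) groups, with the mean and SD beside them. Nlrc5, Rfx5 and Irf1 lie lower and Psmb10, Psmb8 and B2m higher in all OP libraries, and Psmb9 and Tap1 overlap.

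A mixed list of endoplasmic reticulum and endosomal genes comprised Calr, Canx, Pdia3, Hspa5, Sec61b and Sppl2a, not all of them folding helpers of class I. Of its 6 tested genes 1 was higher and none lower, against 3.26% and 3.47% of all tested genes. The gene called was Hspa5, the chaperone BiP (303 ± 18.5 to 507 ± 73.5 CPM, edgeR, Benjamini-Hochberg adjusted p = 0.0307). With 1 library left out, Hspa5 kept its call only without HFCF replicate 3, OP replicate 2 or OP replicate 3. It lost its call with the mitochondrial covariate. Pdia3, part of the peptide loading complex, was at 177 ± 26.1 and 258 ± 14.8 CPM (edgeR, Benjamini-Hochberg adjusted p = 0.0671). Among the proteasome activator and constitutive catalytic subunits 0 of 6 passed with edgeR, and 2 had an unadjusted p below 0.05, against 25.2% of all genes. DESeq2 and limma-voom each called 1 higher, against 7.7% and 3.71% of all their tested genes. Psmb5, Psmb6 and Psmb7, the constitutive counterparts of the immunoproteasome subunits, had log2 fold changes of 0.05, 0.25 and 0.03. The activator genes Psme1, Psme2 and Psme3 had 0.28, 0.61 and 0.42, each higher in OP without overlap, as were 15.8% of tested genes. For Psme2 the adjusted p was 0.0523 with edgeR (Benjamini-Hochberg) and 0.0104 with DESeq2, and ran from 0.0104 to 0.357 over all alternatives. Among 7 genes of endosomal processing, which prepare class II peptides (cathepsins, the protease gene Lgmn and the thiol reductase gene Ifi30), Ctsb rose (260.0 ± 48.2 to 445 ± 63.1 CPM) and Ctsl fell (669 ± 47.5 to 392 ± 55.3 CPM). Their edgeR adjusted p were 0.0431 and 0.0286, and 3.26% of all genes rose and 3.47% fell. With 1 library left out, Ctsb kept its call only without HFCF replicate 3 or OP replicate 3, and Ctsl only without OP replicate 3. With the mitochondrial covariate neither passed (log2 fold changes 0.28 and -1.01). Ctss, the cathepsin that cuts the invariant chain, was at 17.0 ± 3.93 and 15.2 ± 4.74 CPM, and Ifi30 at 13.0 ± 0.889 and 17.5 ± 2.29 CPM; neither passed. None of 6 tested genes of class II turnover and co-stimulation passed with edgeR or DESeq2. Of these 6, 1 had an unadjusted p below 0.05, against 25.2% of all genes.

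In whole liver, fewer cells of a type and less RNA per cell cannot be told apart, so the levels of cell type markers are given beside the class II genes. No Kupffer, recruited macrophage, dendritic, B, T and natural killer, endothelial, stellate or cholangiocyte marker passed with edgeR. An unadjusted p below 0.05 was reached by 2 of 10 Kupffer cell and 1 of 10 recruited macrophage markers. It was also reached by 4 of 8 B cell and 1 of 6 cholangiocyte markers, against 25.2% of all tested genes. DESeq2 called 2 Kupffer cell and 1 B cell marker lower, against 7.41% of all its tested genes. With limma-voom 1 B cell marker was called lower, against 3.87% of all genes. Summed Kupffer cell markers ran from 338 to 422 CPM in HFCF and from 222 to 352 CPM in OP, and summed dendritic cell markers from 19.2 to 24.6 and from 19.8 to 28.4 CPM. Summed T and natural killer cell markers ran from 6.75 to 10.6 CPM in HFCF and from 5.35 to 8.38 CPM in OP, with 3 of 10 at 0 in some library. Of 8 B cell markers, 6 had a negative and 2 a positive log2 fold change. Their sum ran from 35.9 to 69.3 CPM in HFCF and was 17.6, 162 and 31.5 CPM in OP, the high value being due to Ighm in OP replicate 2. Ighd, the gene of the IgD heavy chain, was at 12.2, 10.4 and 6.04 CPM in HFCF and at 1.48, 4.09 and 3.73 CPM in OP, and did not pass with edgeR. H2-Ob was, like Ighd, highest in HFCF replicate 1 and lowest in OP replicate 1. The part of B cell content in the values of H2-Ob was not tested.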

How the data were processed

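Poly(A) RNA of mouse liver was sequenced as stranded paired-end libraries, per the labels' protocols. Cutadapt 1.9, FastQC and the build GRCm39 are named in the submitters' processing notes; how reads were aligned and counted, and whether by strand, is not stated there. The authors deposited whole-number counts per gene. In HFCF replicate 1, 879 genes had a count of 4, against 558 with 3 and 258 with 5, so a read pair may be worth several counts, and counting depth may be overstated.

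Symbols were matched by Ensembl identifier (55141 of 55401). Genes passing filterByExpr were tested for OP minus HFCF with edgeR 4.0.16 (TMM, glmQLFTest, two-sided) in R 4.3.3; p-values were adjusted across the tested genes by Benjamini-Hochberg, with 0.05 as the threshold. The standard error is |log2 fold change| over the square root of F. CPM use TMM-scaled totals. Lengths and overlaps come from GENCODE M21 (GRCm38). DESeq2 1.42.0 and limma 3.58.1 (voom) were alternatives. The tests were tried on simulated data. Figures used matplotlib 3.10.9.

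The members and lists were chosen with earlier results of these data known. Values per library were given for members that passed, a fixed set of main genes, and the 3 largest rises and falls; other genes given in full, such as H2-T23, H2-Q1, H2-Ob, Tapbp, Tapbpl, Cd1d1 and H2-Ke6, were chosen after their values were seen. Results for some listed pathway and marker genes are not reported here.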

Additional observations from a re-analysis of the deposited data

How the results depend on the processing

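Over all genes, the counts called higher and lower in OP (567 and 603) were 1180 and 1135 with DESeq2, 298 and 400 with no low-count filter, 87 and 93 with the replicate number as a block, and 110 and 97 with the mitochondrial covariate. Leaving out 1 library at a time they ran from 34 to 655 and from 54 to 655. For class I genes (3 higher, 5 lower) the number higher was 5 with DESeq2, 0 with the replicate block and 1 with the mitochondrial covariate, and the number lower was 2 with no low-count filter, 0 with the replicate block and 0 with the covariate; without 1 library they ran from 0 to 4 and from 0 to 5. The class I median log2 fold change ran from 0.076 (without OP replicate 2) to 0.32 and the class II median (0.10) from -0.10 to 0.23 when 1 library was left out. The number of class II genes called lower was 1 with DESeq2 and 0 otherwise. All class I heavy chains summed gave 0.23, against the median of 0.01. Deviations from the group mean in same-numbered libraries had correlations of 0.0229, -0.126 and -0.164 for replicates 1, 2 and 3. Between libraries of different number they ran from -0.152 to 0.248. With 3 libraries per group these values cannot show whether the numbers pair libraries, and the labels do not say so.

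Some uncalled values changed sign. Ciita was 0.00599 with the replicate block, 0.44 with the mitochondrial covariate, 0.11 with limma-voom and from -0.51 to 0.17 without 1 library. H2-K1 was -0.023 with upper quartile scaling, -0.012 with a filter of 1 CPM in 3 libraries, -0.17 with the covariate, -0.0048 with counts divided by 4 and from -0.060 to 0.090 without 1 library. With the covariate H2-Bl was 0.056, against -1.27 without it, and Tap1 was 0.070. Without 1 library Tap1 ran from -0.12 to 0.0098, H2-Ab1 from -0.036 to 0.26 and H2-Eb1 from -0.10 to 0.27. None of the 8 called genes changed sign under any alternative. H2-Q6, H2-Q7, H2-T22 and Nlrc5 lost their calls with no low-count filter, and H2-T22 with upper quartile scaling. H2-M2 gave no value without OP replicate 1, without OP replicate 2, with the filter of 1 CPM or with counts divided by 4, where it failed the filter. Where a cause is not the number of libraries or genes in the fit, the cause was not tested.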
